A study of Mus musculus with 12 samples.

Results

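The 10 genes described here, Hmox1, Slc11a1, Slc40a1, Tfrc, Fth1, Cp, Steap1, Steap2, Steap3 and Steap4, handle iron or belong to the STEAP family of metalloreductases. They were chosen by name, and all 10 were found among the 23132 genes of the table. Their mRNA was measured in epididymal white adipose tissue (eWAT), the fat pad beside the epididymis, of male C57BL/6J mice aged 21 weeks. From 5 weeks of age the mice, housed singly, received a normal diet (ND), a high-fat diet (HFD), the HFD with an ethanol extract of chrysanthemum leaves at 1.5% of its weight (CLE), or the HFD with the flavonoid luteolin at 0.003% of its weight (LU). All CLE and LU mice therefore also ate the HFD, and the diets ran for 16 weeks. Each group had 3 mice, described in the methods as representative of a larger group, with 1 library per mouse and 12 libraries in all. The titles of the CLE libraries read CLL, while their descriptions name CLE. The column of ND mouse 4 was assigned to that mouse by inference from its header.

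Iron reaches most cells bound to transferrin, which the receptor encoded by Tfrc carries into endosomes. There a STEAP protein reduces ferric to ferrous iron, which leaves the vesicle through a transporter such as the product of Slc11a2. Iron not used is stored in shells of ferritin, built from the heavy chain of Fth1 and the light chain of Ftl1, or leaves the cell through ferroportin, the product of Slc40a1, and is oxidised outside by ceruloplasmin (Cp) or hephaestin (Heph). Macrophages take up red cells and release their iron with heme oxygenase 1, the enzyme of Hmox1, and pump metal out of phagosomes with NRAMP1, the product of Slc11a1. In fat, these cells and adipocytes both handle iron.

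Several mRNAs of this system carry an iron-responsive element, a hairpin that the proteins of Aco1 and Ireb2 bind when iron is low. In a 5′ UTR the bound hairpin blocks translation, and in a 3′ UTR it protects the mRNA from decay. The spliced sequences of 21877 protein-coding genes of GENCODE M21 (GRCm38) were searched, on the transcript strand only, for a C, 5 bases, the loop CAGTGN (its last letter not G) and 5 bases that pair with the first 5, G with T allowed. Such a hairpin was found in 222 genes (1.01%), among them 3 of the 10, Fth1, Slc40a1 and Tfrc, and in Ftl1. They are shown because they separate the ferritin, exporter and receptor mRNAs from the other 7 genes described here, with the 6 bases of the loop in capitals and T written for U.
Fth1, 5′ UTR, chr19:9982733-9982759, plus strand: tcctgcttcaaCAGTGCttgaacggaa
Ftl1, 5′ UTR, chr7:45459780-45459806, minus strand: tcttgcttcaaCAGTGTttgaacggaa
Slc40a1, 5′ UTR, chr1:45925466-45925492, minus strand: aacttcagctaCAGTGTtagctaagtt
Tfrc, 3′ UTR, chr16:32631220-32631246, plus strand: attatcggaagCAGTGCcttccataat
Tfrc, 3′ UTR, chr16:32631599-32631625, plus strand: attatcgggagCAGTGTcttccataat
Tfrc, 3′ UTR, chr16:32631664-32631690, plus strand: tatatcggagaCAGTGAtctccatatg
Tfrc, 3′ UTR, chr16:32631711-32631737, plus strand: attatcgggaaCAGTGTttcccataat
A match gives letters only, and the binding of the proteins and the amount of protein made were not measured.

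The values are FPKM, fragments scaled to the length of the transcript and to the size of the library, summed over the Ensembl transcripts of a gene. Differences were tested with limma on log2(FPKM + 1) across the 12813 genes with at least 1 FPKM in at least 3 libraries, and fold changes are on that scale, which understates the change of low genes. A gene was called when its Benjamini-Hochberg adjusted p was under 0.05 and its fold change was over 1.5. Of the 10 genes, 9 passed the filter. Steap1 did not, with 0 to 0.218 FPKM over the 12 libraries. The depth is unknown, since the table gives no counts. In GRCm38, Hmox1 lies at chr8:75093621-75100589 and Slc11a1 at chr1:74375195-74386062 (both plus strand), and Steap3 at chr1:120190757-120272705 (minus strand). Steap1, Steap2 and Steap4 lie on chromosome 5, within chr5:5664829-7982213.

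The tissue labels were checked against marker genes. The FPKM of 10 adipocyte genes summed to between 32780 and 35130 in ND, 16910 and 19020 in HFD, 26060 and 28820 in CLE, and 24590 and 29830 in LU. Of these 10, 7 were called lower in HFD than in ND, 1, Lep, was called higher, and 2 were not called. Fabp4 held much of the sum, with a mean of 19730 FPKM in ND and 11000 in HFD. The sum over 11 macrophage genes was 394 to 575 in ND, 2395 to 2772 in HFD, 656 to 931 in CLE and 1026 to 1127 in LU, and 10 of these 11 genes were called higher in HFD than in ND. For 6 genes of lipid-associated macrophages it was 11.7 to 13.6 in ND, 1189 to 1548 in HFD, 52.8 to 447 in CLE and 155 to 368 in LU. CLE mouse 11 had the highest value of its group for both macrophage lists, and its 5 measured skeletal muscle genes summed to 16.2 FPKM, against 0.72 and 0.824 in the other CLE mice and 6.445 in HFD mouse 12. Erythroid genes, which carry the RNA of blood, summed to between 571 and 2291 FPKM in ND and 188 to 308 in HFD. An unexplained letter R stands in 4 labels, those of LU mouse 2, CLE mouse 4 and ND mice 3 and 4, and in no HFD label.

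In the HFD group 3 of the 9 tested genes were higher than in ND, namely Slc11a1, Hmox1 and Steap3, and 2 were lower, Cp and Steap2. The other 4, Fth1, Slc40a1, Tfrc and Steap4, were not called. Of all genes tested, 25.7% were called in this comparison, 14.9% higher and 10.8% lower. The median log2 fold change was 0.07 over the 9 genes and -0.02 over all genes. The HFD and ND mice did not overlap for 6 of the 9 genes, against 59.5% of all genes, and 5 of the 9 had an adjusted p under 0.05, against 50.5%. All 5 calls held without any single library. They also held without the 4 libraries with the letter R, in a fit where ND mouse 2 was the only ND mouse and was assumed to vary like the others.

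**Figure D1:**
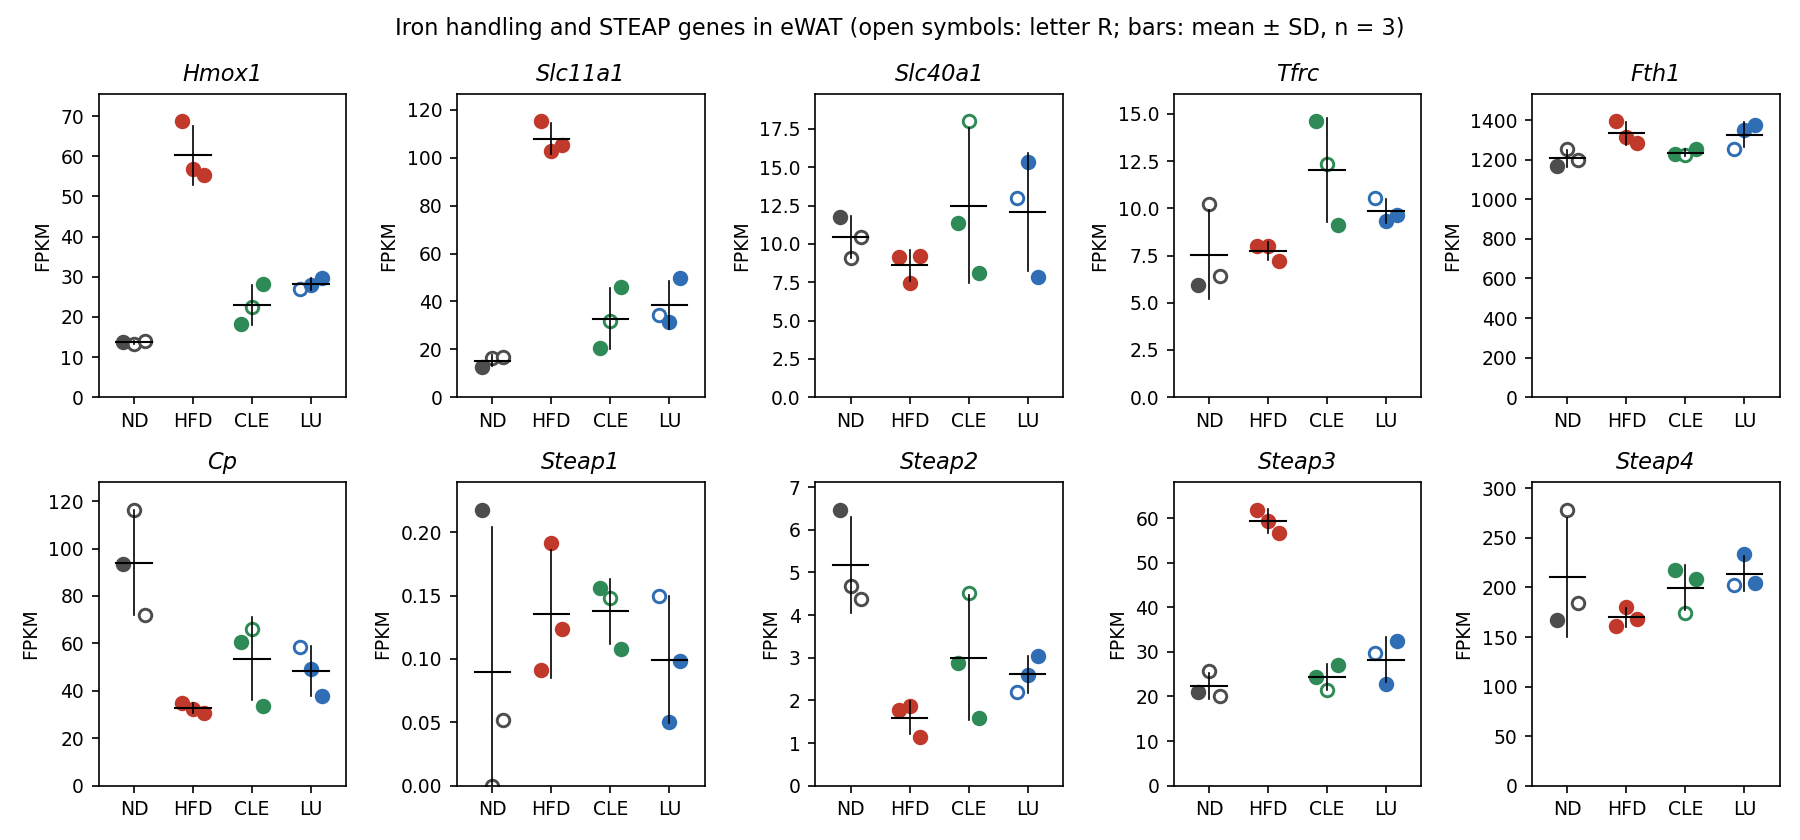
FPKM (linear axes from 0) of the 10 genes in the 12 libraries by group, each point 1 mouse, open symbols the libraries with the letter R, bars the mean ± SD of 3 mice. The HFD points of Hmox1, Slc11a1 and Steap3 stand above every other point, those of Cp lie at the low end beside CLE mouse 11, and Fth1 stays between 1167 and 1395 FPKM in all libraries.

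Hmox1, which degrades heme to biliverdin, carbon monoxide and iron, measured 13.6, 13.2 and 14.1 FPKM in ND mice 2, 3 and 4. In HFD mice 12, 15 and 18 it measured 68.8, 56.7 and 55.5. It measured 18.2, 22.5 and 28.2 in CLE mice 2, 4 and 11 and 26.9, 27.9 and 29.7 in LU mice 2, 3 and 8. Every HFD mouse lay above every mouse of the other groups, and every ND mouse below. The log2 fold change of HFD against ND was 2.06 (SE 0.137, adjusted p = 8.7e-07), that of CLE against HFD -1.37 (SE 0.137, adjusted p = 4.1e-05) and that of LU against HFD -1.07 (SE 0.137, adjusted p = 0.00036). These and all following comparisons with HFD share the same 3 HFD mice.

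Slc11a1, the phagosomal metal transporter, showed the largest difference of the 9 between HFD and ND. The ND mice had 12.5, 16.3 and 16.8 FPKM and the HFD mice 115, 103 and 105. The CLE mice had 20.5, 31.9 and 46.1, and the LU mice 34.4, 31.4 and 49.9. CLE mouse 11 and LU mouse 8 were the highest of their groups but remained under every HFD mouse. Against ND the HFD value was higher by 2.76 on the log2 scale (SE 0.248, adjusted p = 5.4e-06), and against HFD the change was -1.76 in CLE (SE 0.248, adjusted p = 0.00031) and -1.49 in LU (SE 0.248, adjusted p = 0.0015). Transcripts typed as other than protein coding held 55.0% to 82.3% of the gene's FPKM in each library. With only the protein-coding transcripts, the mean was 4.45 ± 1.35 FPKM in ND, 40.5 ± 2.21 in HFD, 11.8 ± 4.76 in CLE and 14.3 ± 1.54 in LU (SD, n = 3), and the calls against HFD and of HFD against ND stood.

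Steap3, the endosomal ferrireductase of red cell precursors and macrophages, measured 21.1, 25.6 and 20.1 FPKM in ND and 61.9, 59.5 and 56.7 in HFD. Values in CLE were 24.5, 21.5 and 27.2 and in LU 29.7, 22.7 and 32.4. The ranges of ND, CLE and LU overlapped, and the HFD mice stood alone. The gene rose by a log2 fold change of 1.38 with HFD (SE 0.137, adjusted p = 1.1e-05) and was lower than HFD by -1.26 in CLE (SE 0.137, adjusted p = 6.3e-05) and by -1.06 in LU (SE 0.137, adjusted p = 0.00037). Of the 3 genes that rose with HFD, it was the one not called between CLE and ND (0.12, 95% interval -0.18 to 0.42) or between LU and ND (0.32, 0.02 to 0.62).

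The macrophage sums given above moved with these 3 genes, and in bulk tissue fewer cells of a type and less RNA per cell cannot be told apart. Relative to the mean log2(FPKM + 1) of the 11 macrophage genes in the same library, Hmox1 was at -0.30 ± 0.23 in ND, -0.45 ± 0.08 in HFD, -0.25 ± 0.11 in CLE and -0.29 ± 0.04 in LU (SD, n = 3). Slc11a1 was at -0.16 ± 0.29 in ND and 0.38 ± 0.02 in HFD, with 0.20 ± 0.36 in CLE and 0.12 ± 0.26 in LU. Steap3 was at 0.37 ± 0.04 in ND and -0.47 ± 0.05 in HFD, so on this scale it had the opposite order, with -0.15 ± 0.22 in CLE and -0.30 ± 0.20 in LU. The part of the macrophage genes in the differences was not tested.

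**Figure D2:**
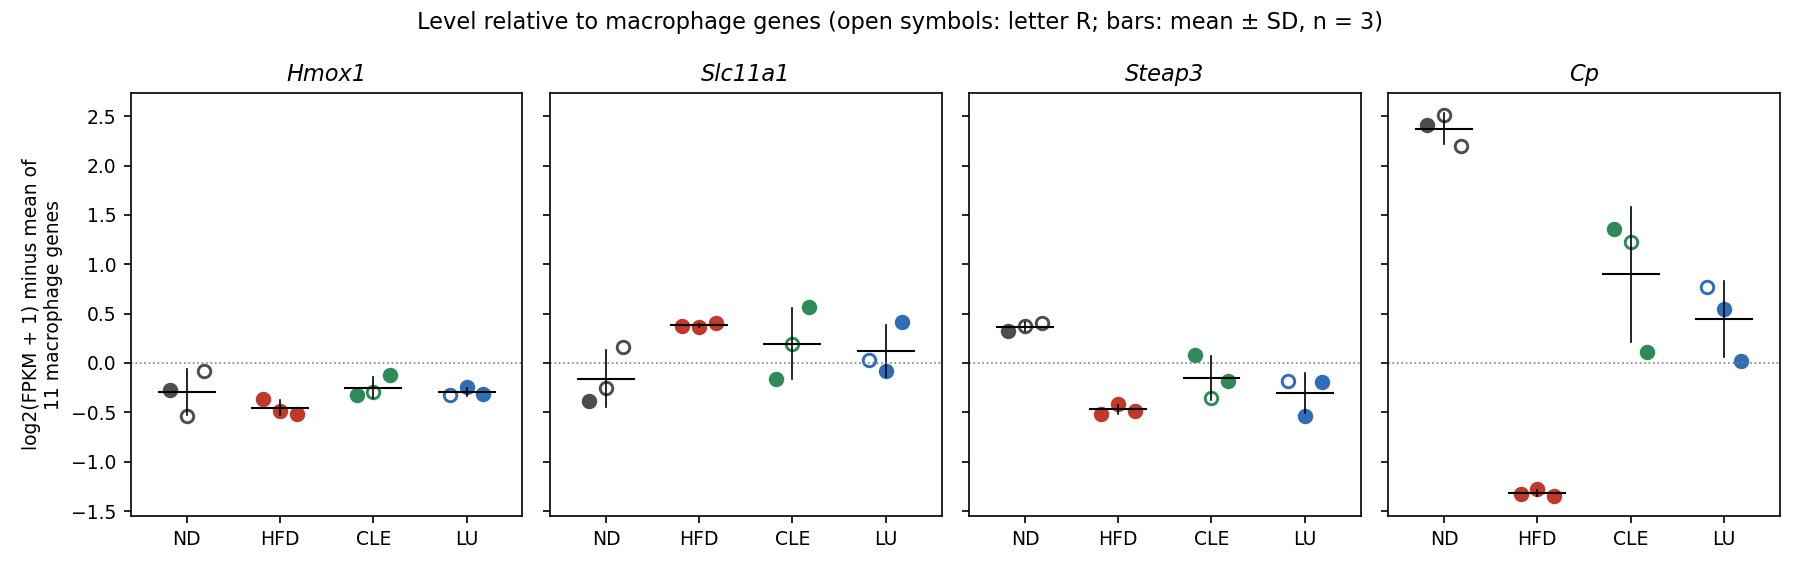
Log2(FPKM + 1) of 4 genes minus the mean of 11 macrophage genes in the same library (y axis, log2 units) by group, each point 1 mouse, open symbols the letter R, bars the mean ± SD of 3 mice. Hmox1 lies between -0.54 and -0.08 in all libraries, whereas Cp goes from 2.38 in ND to -1.32 in HFD.

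Cp, the ceruloplasmin gene, went the other way. It measured 93.4, 116 and 72.1 FPKM in ND mice 2, 3 and 4 and 34.8, 32.3 and 30.6 in the HFD mice, with a log2 fold change of -1.48 (SE 0.248, adjusted p = 0.00049). The CLE mice had 60.7, 66.2 and 33.5 and the LU mice 58.5, 49.2 and 37.6. All ND mice lay above all others, and CLE mouse 11 lay within the HFD range. Cp was not called in CLE against HFD (0.64, SE 0.248, adjusted p = 0.067) or in LU against HFD (0.54, SE 0.248, adjusted p = 0.13). Without CLE mouse 11 it was called higher in CLE than in HFD (0.94, adjusted p = 0.0052). The gene lies at chr3:19957054-20009145 (plus strand) and overlaps Hps3 on the other strand, and the sources used here do not state that strand was kept, so reads of the pair may be mixed. A sum over 6 mesothelial genes was 9.85 to 59.7 FPKM in ND and 2.32 to 7.29 in HFD, with 5 of 6 called lower, and its part in the Cp difference was not tested. The adipocyte sum also fell with HFD, as given above. Relative to the mean log2(FPKM + 1) of the 10 adipocyte genes, Cp was at -3.37 ± 0.31 in ND, -4.18 ± 0.13 in HFD, -4.14 ± 0.46 in CLE and -4.10 ± 0.31 in LU (SD, n = 3), and the part of the adipocyte genes was not tested either.

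Steap2, another reductase of the family, was low and fell with HFD, from 6.48, 4.67 and 4.38 FPKM in ND to 1.77, 1.87 and 1.15 in HFD (log2 fold change -1.25, SE 0.235, adjusted p = 0.0011). The CLE mice had 2.87, 4.52 and 1.59 and the LU mice 2.19, 2.60 and 3.04. All LU mice lay between the HFD and the ND ranges, while CLE mouse 11 lay within the HFD range and CLE mouse 4 within that of ND. The difference from HFD was 0.57 in CLE (SE 0.235, adjusted p = 0.085) and 0.48 in LU (SE 0.235, adjusted p = 0.15), so neither was called. Relative to the adipocyte genes Steap2 was at -7.30 ± 0.24 in ND, -7.88 ± 0.17 in HFD, -7.91 ± 0.51 in CLE and -7.86 ± 0.18 in LU (SD, n = 3), and their part in its difference was not tested. Without CLE mouse 11 the CLE value was 0.84 and called (adjusted p = 0.0079).

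Steap4, the most abundant STEAP gene of the tissue and a reductase of adipocytes and other cells, was not called in any comparison. Its ND mice had 167, 279 and 185 FPKM, its HFD mice 161, 181 and 168, its CLE mice 218, 174 and 208 and its LU mice 202, 234 and 205. ND mouse 3 was the highest of all 12. The log2 difference of HFD from ND was -0.27, with a 95% interval from -0.63 to 0.09. The summed FPKM of the 4 STEAP genes was 238 ± 62.1 in ND, 231 ± 9.71 in HFD, 228 ± 24.1 in CLE and 245 ± 13.1 in LU (SD, n = 3). Steap3 made up 9.58% ± 1.27 of that sum in ND, 25.7% ± 1.59 in HFD, 10.7% ± 0.734 in CLE and 11.6% ± 2.52 in LU. Steap4 held 88.1% ± 2.24 in ND, 73.5% ± 1.64 in HFD, 87.9% ± 0.924 in CLE and 87.3% ± 2.62 in LU, and Steap2 2.31% ± 0.923 in ND and 0.690% ± 0.157 in HFD. The share of Steap3 was thus higher in every HFD mouse (24.6% to 27.5%) than in any other mouse (8.29% to 13.5%).

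**Figure D3:**
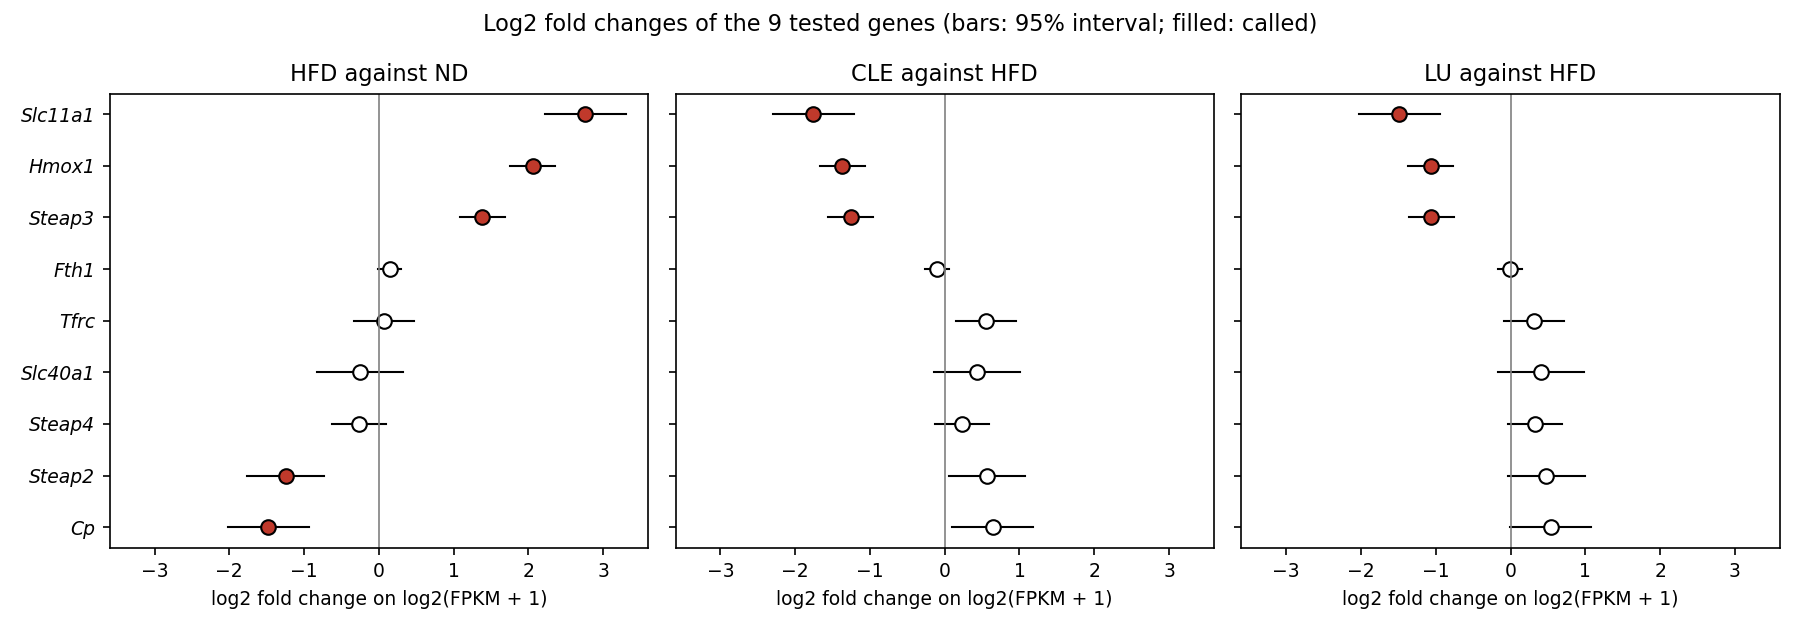
Log2 fold changes on log2(FPKM + 1) of the 9 tested genes (x axis) in HFD against ND, CLE against HFD and LU against HFD, with 95% intervals, filled where called. Slc11a1, Hmox1 and Steap3 lie to the right in the first panel and to the left in the other panels, and Cp and Steap2 lie on the opposite side in each.

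Of the 3 mRNAs among the 10 genes that carry the hairpin, none was called in any comparison. Over all genes the share called was 25.7% in HFD against ND, 16.5% in CLE against HFD and 12.4% in LU against HFD. Ftl1, outside the 10 but with a hairpin, was called in each of these comparisons, as given below. Fth1, the ferritin heavy chain, was the most abundant of the 10 genes and had the narrowest relative range, with 1167, 1254 and 1198 FPKM in ND, 1395, 1317 and 1286 in HFD, 1227, 1224 and 1255 in CLE and 1254, 1349 and 1375 in LU. The HFD mice all lay above the ND mice, by 0.14 on the log2 scale (95% interval -0.02 to 0.30, adjusted p = 0.12). Slc40a1, the ferroportin gene, had 11.8, 9.08 and 10.48 FPKM in ND, 9.17, 7.44 and 9.19 in HFD, 11.4, 18.01 and 8.09 in CLE and 13.02, 15.4 and 7.82 in LU. Its groups overlapped in every comparison, and the difference of HFD from ND was -0.25 (95% interval -0.83 to 0.32).

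Tfrc, the transferrin receptor, had 5.95, 10.2 and 6.40 FPKM in ND, 7.996, 8.02 and 7.20 in HFD, 14.6, 12.4 and 9.12 in CLE and 10.6, 9.33 and 9.65 in LU. Every CLE and every LU mouse lay above the 3 HFD mice, while the ND mice spanned the HFD range. For CLE against HFD the log2 fold change was 0.56 (SE 0.183, adjusted p = 0.036), under the fold required for a call, and without CLE mouse 11 it was 0.73 and called (adjusted p = 0.010). LU against HFD gave 0.31 (SE 0.183, adjusted p = 0.23). The transcript class changed this value. Protein-coding transcripts of Tfrc had 6.88 ± 0.641 FPKM in HFD and 8.04 ± 1.45 in CLE (SD, n = 3), a log2 fold change of 0.19 (adjusted p = 0.58). A retained-intron transcript, picked out after its values were seen, had 0.826 ± 0.622 FPKM in HFD and 3.64 ± 1.35 in CLE.

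Against HFD, both supplements gave the same list of calls, Hmox1, Slc11a1 and Steap3, all lower. These 3 calls held in both comparisons without any single library. Over all genes, 16.5% were called in CLE against HFD (6.34% higher, 10.2% lower) and 12.4% in LU against HFD (4.77% higher, 7.68% lower). The adjusted p alone was under 0.05 for 4 of the 9 genes with CLE (33.7% of all genes), Tfrc being the addition, and for 3 with LU (27%). The groups did not overlap for 5 of the 9 with CLE (50.6% of all genes) and for 7 with LU (47.7%). The 2 comparisons share the HFD mice, so their lists are not independent. Between CLE and LU, limma called 0 of the 9 genes, and 1 of 9, Hmox1, had an unadjusted p under 0.05 (-0.31, 95% interval -0.61 to -0.004, adjusted p = 0.90). In that comparison 0.0078% of all genes were called and 5.21% had an unadjusted p under 0.05. The intervals of the CLE and LU difference were -0.81 to 0.27 for Slc11a1, -0.50 to 0.10 for Steap3 and -0.44 to 0.65 for Cp.

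Set against ND, some of the 9 genes were called in the supplemented mice. Hmox1 was called higher in LU than in ND (log2 fold change 0.99, SE 0.137, adjusted p = 0.0016) and so was Slc11a1 (1.27, SE 0.248, adjusted p = 0.0077), whereas Cp was called lower (-0.94, SE 0.248, adjusted p = 0.030). In this comparison 6.57% of all genes were called (4.98% higher, 1.59% lower). The Cp call was lost without ND mouse 2, ND mouse 3, LU mouse 3 or LU mouse 8 (adjusted p 0.058 to 0.12). It was also lost in 6 of 16 other settings (adjusted p 0.051 to 0.11). For CLE against ND, where 2.98% of all genes were called (2.11% higher, 0.874% lower), Hmox1 (0.69, SE 0.137, adjusted p = 0.020) and Slc11a1 (1.00, SE 0.248, adjusted p = 0.042) were called higher. Both calls were lost without ND mouse 2, ND mouse 3, CLE mouse 4 or CLE mouse 11, with adjusted p of 0.054 to 0.056 for Hmox1 and 0.079 to 0.12 for Slc11a1. The Slc11a1 call was lost in 9 of the 12 fits that each left out 1 library. Without the 4 libraries with the letter R, which left ND mouse 2 alone in its group, 0 of the 9 genes were called in either comparison with ND.

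The other genes of iron metabolism were listed by role, 55 symbols in all, of which 45 could be tested. With HFD 9 of the 45 were called higher and 7 lower than in ND, against 14.9% and 10.8% of all genes. In CLE 2 were higher and 8 lower than in HFD (all genes, 6.34% and 10.2%), and in LU 2 were higher and 6 lower (4.77% and 7.68%). Hpx, counted among these, passed the filter on low values through the HFD mice alone, and without it 8 of 44 were higher with HFD, 7 lower in CLE and 5 lower in LU. The LU count was 4 without LU mouse 2 and 5 without LU mouse 3. Between CLE and ND, limma called 0 of the 45, against 2.98% of all genes. An unadjusted p under 0.05 was found for 11 of the 45, against 23.3% of all genes, and an adjusted p under 0.05 for 1.

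Genes that take up and recycle heme and hemoglobin made up most of the rises, 7 of 12 in that list being called higher in HFD and 1 lower (all genes, 14.9% and 10.8%), or 6 of 11 without Hpx. The median log2 fold change of the 12, Hpx included, was 0.68, against -0.02 over all genes. That of the 11 macrophage genes was 2.39. Their part in these rises, or in those of Ftl1 and Tfr2 given below, was not tested. Hp, which encodes haptoglobin, the binder of free hemoglobin, went from 1141 ± 246 FPKM in ND to 4886 ± 661 in HFD (log2 fold change 2.11, SE 0.264, adjusted p = 5.8e-05) and stood at 1879 ± 569 in CLE and 2846 ± 1051 in LU (SD, n = 3). Hepatocyte genes, 7 in all, summed to between 16.1 and 36.2 FPKM in ND and 3.17 and 12.8 in HFD, and 5 of 5 tested erythroid genes were called lower with HFD. Hpx, for hemopexin, the binder of free heme, had 2.71, 2.204 and 3.32 FPKM in the HFD mice and 0.965, 0 and 0.286 in the ND mice, given as a description since the filter chose it through HFD. Lrp1, the receptor of heme-hemopexin, rose by 0.74 (138 to 232 FPKM) and Slc48a1, which carries heme out of phagolysosomes, by 0.75 (97.5 to 164 FPKM). Blvra and Blvrb, the biliverdin reductases downstream of Hmox1, rose by 1.14 and 0.62. Hp, Lrp1 and Flvcr1 were called lower than HFD in both CLE and LU, and Blvra in CLE (-0.69, adjusted p = 0.014). Abcg2, which exports porphyrins, had 12.6 FPKM in HFD and 19.7 in CLE and was called higher in CLE (0.59, adjusted p = 0.014).

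Several related genes, paired after their values were seen, diverged within the same libraries. The Ftl1 light chain, with a hairpin like that of Fth1, rose from 654 ± 4.25 FPKM in ND to 1506 ± 73.9 in HFD (log2 fold change 1.20, SE 0.133, adjusted p = 2.4e-05) and was lower than HFD in CLE (803 ± 144, -0.92, adjusted p = 0.00037) and LU (977 ± 146, -0.64, adjusted p = 0.0052). The FPKM ratio of Ftl1 to Fth1 was 0.523 to 0.562 in the ND mice, 1.12 to 1.14 in HFD, 0.566 to 0.771 in CLE and 0.644 to 0.785 in LU. Only in the HFD libraries was the ratio above 1. Both ferritin genes have processed copies in the genome, so the share of reads given to each is uncertain.

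Tfr2, the second transferrin receptor, had 0.834, 1.49 and 1.73 FPKM in ND and 19.4, 21.9 and 22.9 in HFD, the largest rise among the iron genes (log2 fold change 3.27, SE 0.400, adjusted p = 5.1e-05). It had 2.45, 2.84 and 5.42 in CLE and 5.15, 3.36 and 15.7 in LU, lower than HFD by -2.35 (adjusted p = 0.0011) and -1.55 (adjusted p = 0.015). LU mouse 8 stood apart from the other LU mice. The ratio of Tfr2 to Tfrc was 0.140 to 0.269 in ND and 2.43 to 3.18 in HFD. Flvcr1 and Flvcr2, related transporters of the same family, moved in opposite directions with HFD (1.19 and -0.84, adjusted p 4.3e-05 and 0.00035), which took their FPKM ratio from 2.95 ± 0.396 to 24.3 ± 1.60. Steap3 to Steap2 went from 4.44 ± 1.12 to 38.7 ± 9.31.

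**Figure D4:**
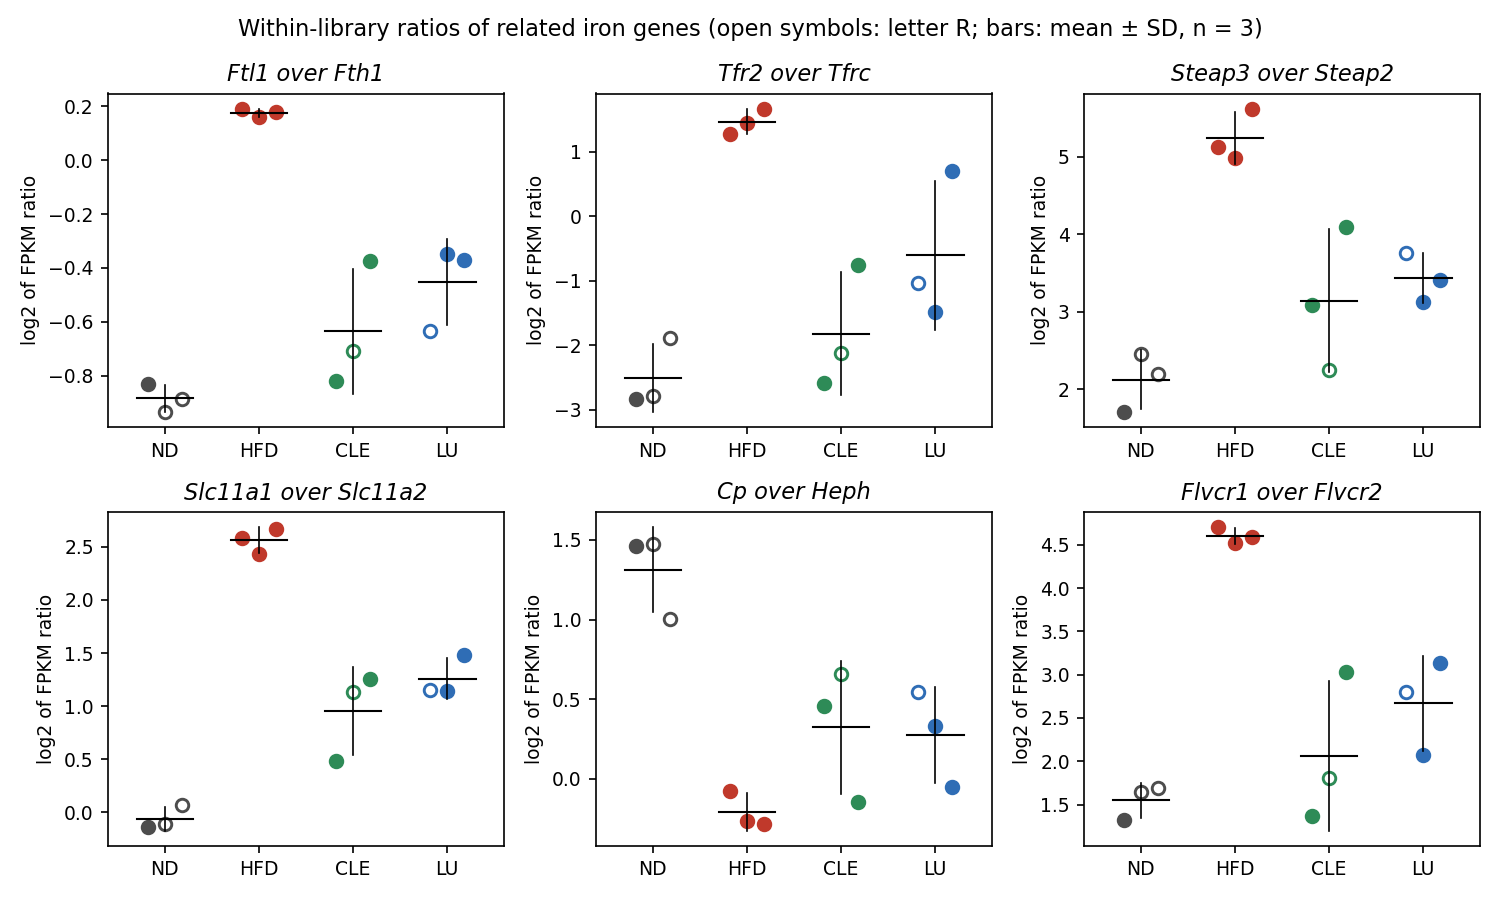
Log2 of the FPKM ratio within each library for 6 pairs of related genes by group, each point 1 mouse, open symbols the letter R, bars the mean ± SD of 3 mice. The pairs were picked after their values were seen. The HFD mice stand above all ND, CLE and LU mice in 5 of the pairs. For Cp over Heph they overlap CLE mouse 11 and lie below every ND mouse.

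Other relatives of the rising and falling genes were not called. Hmox2, a relative of Hmox1, had 21.8 FPKM in ND and 31.5 in HFD (log2 fold change 0.51, adjusted p = 0.001), under the fold required. Slc11a2, the transporter of endosomes and a relative of Slc11a1, had 15.8 ± 1.95 FPKM in ND and 18.3 ± 1.50 in HFD (log2 fold change 0.20, 95% interval -0.09 to 0.49, adjusted p = 0.22). Heph, the membrane ferroxidase, had 37.3 ± 4.17 in ND, 37.6 ± 1.10 in HFD, 41.0 ± 3.72 in CLE and 39.4 ± 0.583 in LU, so the ratio of Cp to Heph was 2.51 ± 0.438 in ND and 0.868 ± 0.0714 in HFD. The genes of the proteins that bind the hairpins were not called, Ireb2 with 17.6 and 16.6 FPKM in ND and HFD (-0.07, adjusted p = 0.57) and Aco1 with 94.0 and 66.6 (-0.48, adjusted p = 0.012, under the fold required). Hamp, which encodes the hormone hepcidin, was listed at 0 in 11 libraries and at 0.273 FPKM in ND mouse 4, and was not tested. No gene was found under the symbol Tf, so transferrin was not analysed.

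The 7 genes called lower with HFD were Flvcr2, given above, and 6 others. Alad, an early enzyme of heme synthesis, fell by 1.05 on the log2 scale (33.2 to 15.5 FPKM, adjusted p = 7e-06) and Ppox, a late one, by 0.59. Slc25a28, for the mitochondrial iron importer mitoferrin 2, fell by 0.63. These 3 were the called genes among 14 tested genes of mitochondrial iron, iron-sulfur clusters and heme synthesis, of which 0 were higher (all genes, 10.8% lower and 14.9% higher). Slc39a8, a metal importer, had 4.83, 4.31 and 12.9 FPKM in ND mice 2, 3 and 4 and 2.23, 2.36 and 2.37 in the HFD mice. Its log2 fold change was -1.19, and -0.745 without ND mouse 4, whose column was assigned by inference, when it was still called lower (adjusted p = 0.0018). ND mouse 4 also had a mesothelial sum of 59.7 FPKM, against 9.85 and 23.05 in ND mice 2 and 3. Its sum over 6 genes of epididymal epithelium was 5.53 FPKM, against 1.505 and 0.388. The part of these tissues in its Slc39a8 value was not tested. Slc22a17, a lipocalin 2 receptor, fell by 0.62, while Lcn2, for lipocalin 2 itself, was called lower in CLE than in HFD (-1.81, adjusted p = 0.029). Bmp6, a signal for hepcidin production in liver, fell by 0.75 (16.8 to 9.42 FPKM) and was called higher than HFD in CLE (0.73, adjusted p = 0.0038) and LU (0.77, adjusted p = 0.0041). Slc39a8 was called higher than HFD in LU (0.90, adjusted p = 0.037). Some of these calls rested on single libraries. Between HFD and ND, the call was lost without ND mouse 3 for Slc22a17, without HFD mouse 12 for Blvrb, without HFD mouse 15 for Slc25a28, and without ND mouse 4, HFD mouse 12 or HFD mouse 15 for Ppox. Between CLE and HFD it was lost for Lcn2 without HFD mouse 15 or 18 or any CLE mouse, for Blvra without HFD mouse 12 or CLE mouse 2, and for Abcg2 without HFD mouse 12, HFD mouse 15 or CLE mouse 4. Between LU and HFD it was lost for Hp and Slc39a8 without any HFD mouse, LU mouse 2 or LU mouse 3, for Tfr2 without LU mouse 2 or 3, and for Ftl1 without LU mouse 2.

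**Figure D5:**
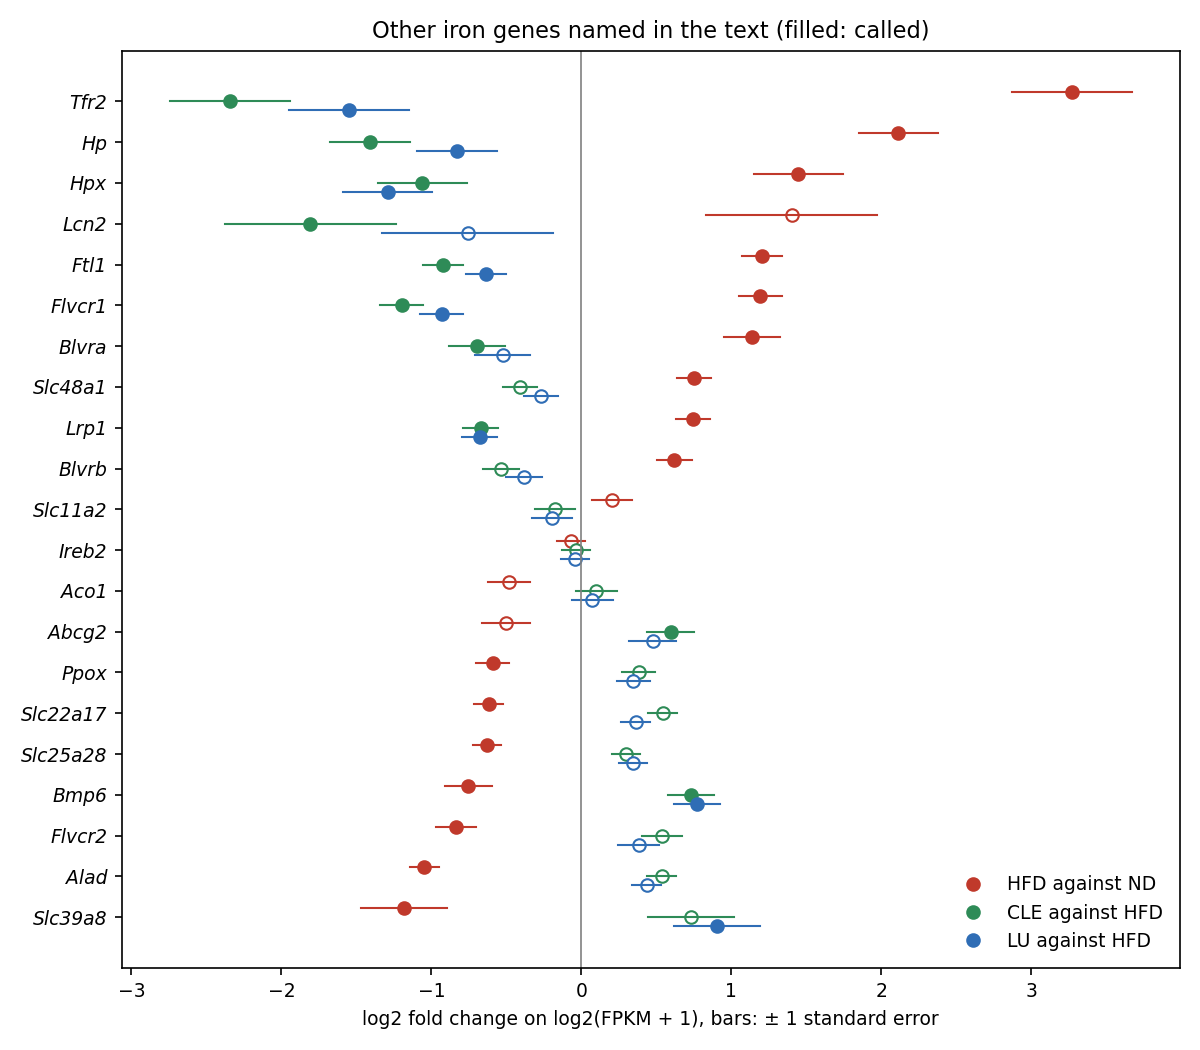
Log2 fold changes on log2(FPKM + 1) with ± 1 standard error (x axis) of 21 other iron genes in HFD against ND, CLE against HFD and LU against HFD, filled where called. Tfr2, Hp, Ftl1 and Flvcr1 lie far to the right with HFD and to the left with CLE and LU, and Alad and Slc39a8 lie to the left with HFD. Hpx is shown too, though it passed the filter through the HFD mice alone.

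For each tested gene, the 2 genes most alike over the 12 libraries were found by Pearson's r of log2(FPKM + 1), as a description across libraries that differ by diet. Hmox1 was nearest to Nceh1 (0.995) and Tlr8 (0.994), Slc11a1 to Hk3 (0.996) and Dpep2 (0.995), and Steap3 to Anxa4 (0.990) and Arf3 (0.986). Cp was nearest to Mccc1 (0.979) and Enpp2 (0.976) and Steap2 to Aaed1 (0.963) and Sugct (0.956). Tfrc was nearest to Heph (0.935), another gene of the iron lists, then to Akap9 (0.854). The nearest genes of the other 3 were, for Fth1, Tmub2 (0.929) and Itm2b (0.928), for Slc40a1, Mysm1 (0.911) and Dhx36 (0.910), and for Steap4, BC029722 (0.907) and Hspd1 (0.906).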

How the data were processed

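The authors extracted total RNA of eWAT, made paired-end TruSeq mRNA libraries and deposited FPKM values per library for 152210 transcripts. The submitters' processing notes name CASAVA 1.8.2, Bowtie2 2.2.3, TopHat2 2.0.12 and Cufflinks 2.2.1. The genome build is not given in the sources used here, and 87.6% of the known transcripts had the same position in GENCODE M21 (GRCm38). The table has 15 FPKM columns, and 3 that belong to no sample here were left aside. Columns with the authors' own comparisons (fold changes, p-values) were not used.

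Ensembl transcripts, with or without an assembled variant, were summed to 23132 genes. limma 3.58.1 in R 4.3.3 was fitted to log2(FPKM + 1) of 12813 genes with at least 1 FPKM in at least 3 libraries, with all 12 libraries in 1 fit and no covariate, since a count test as used in the study needs counts. A called gene had a fold change over 1.5 and an adjusted p under 0.05. Python 3.11.15, pandas 2.3.3, numpy 2.4.6 and matplotlib 3.10.9 were used for tables and plots.

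The genes, lists and alternatives were chosen with earlier results of these data known. All 10 genes are named, then the other iron genes called in HFD against ND or in either supplement against HFD (at most 20 by size) with Tf, Hamp, Ftl1, Slc11a2, Ireb2 and Aco1, and per tested gene the 2 most alike. Heph, Hmox2 and the pairs were picked after their values were seen. Alternatives were another pseudocount, filter, scaling, sample set, moderation, weighting, covariate, threshold, transcript choice or block, and leaving out each library. The fit on protein-coding transcripts and the counts without Hpx were added after seeing the data. The depth is unknown, which limits statements on low genes such as Steap1.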

Additional observations from a re-analysis of the deposited data

How the results depend on the processing

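The calls of Hmox1, Slc11a1 and Steap3 in HFD against ND, CLE against HFD and LU against HFD held in all alternatives run, and so did that of Cp in HFD against ND. Steap2 held wherever it was tested (a filter at a mean of 5 FPKM removed it and left 4 called genes). No called value changed direction. With array weights, 6 of the 9 genes were called in CLE against HFD, 3 higher and 3 lower, and without single libraries 3 to 6, the 6 without CLE mouse 11. The genes called in CLE against ND numbered 2 as reported and 1 with a pseudocount of 0.1, no filter, the letter R as covariate, the transcript with the highest mean or without class code j (assembled variants), 0 with only the 2 groups or without the letter R libraries, and 0 to 2 without single libraries. In LU against ND, 0 were called without the letter R libraries, against 3. Of the other iron genes in LU against HFD, 5 were called with the letter R as covariate, 5 without those libraries, 5 without class code j and 4 to 11 without single libraries. With the adjusted p alone, 26 of the 45 other iron genes were called in HFD against ND, against 50.5% of all genes. The counts were 27 in CLE against HFD (all genes, 33.7%) and 19 in LU against HFD (all genes, 27%). Fits that each left out 1 library gave 14 to 18 and 8 to 12 other iron genes in the first 2 comparisons.

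Mouse numbers shared by groups were not taken as pairs. The deviations of same-numbered libraries from their group means correlated at -0.102 to 0.186. Libraries of different number were not compared, so these values cannot decide whether the mice were paired. With the number as a replicate block in the 9 ND, CLE and LU libraries, 0 of the 9 genes were called in CLE against ND, 2 in LU against ND and 0 in CLE against LU. No HFD number is shared, so comparisons with HFD had no block.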
